A study of Arabidopsis thaliana with 60 samples.

Results

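The genes described here lie at the distal end of chromosome 1 of Arabidopsis thaliana, between the loci AT1G70250 and AT1G80960, and were higher in 3 of 15 plants. The region spans chr1:26452847-30419047 of the TAIR10.1 assembly, which is 3.97 Mb or 13.0% of the chromosome and reaches nearly to its end. The files list 977 genes of this region, and the 764 whose normalized counts averaged 50 or more over all plants are the members, beside 20686 other listed genes. The other 213 genes fell under this mean. The highest of them, AT1G80160, averaged 47.0 and the lowest member, AT1G80960, averaged 50.1.

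RNA of the aerial tissue was sequenced 18 days after sowing from 3 groups of 5 plants. Triparental triploids (TT) came from double pollination, in which an egg cell is fertilized by sperm of a pair of pollen donors. Biparental triploids (BT) came from a 4n pollen donor and biparental diploids (BD) from a 2n pollen donor, both of them carrying pRPS5a::mGAL4-VP16/- and pUAS::BAR-YFP/-. The mother was a 2n ein3-1 mutant in every cross, so that all plants, the diploids included, carry this maternal ethylene signalling allele and are hybrids with respect to it. The RPS5a promoter is active mainly in dividing tissue and drives the activator that switches on the herbicide resistance and YFP marker. Seedlings had been selected with glufosinate, and YFP and ploidy had been checked before harvest. Each of the 15 profiles is 1 plant, in which the authors combined 4 technical replicates.

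The 3 raised plants are 1 biparental diploid, BD04, and a pair of biparental triploids, BT03 and BT05. The region and these plants were selected on the measured values that are described below, so that the shifts are given as a description with no test. The shift of a gene is its log2(normalized count + 1) in a raised plant minus the median of the other 12 plants, which are 5 TT, 3 BT and 4 BD. All 3 shifts of a gene share these 12 plants. A normalized count is the number of reads divided by 1 size factor per plant.

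In a diploid plant, 1 additional copy of a chromosome segment brings 3 copies against 2, and in a triploid plant 4 against 3. RNA that followed copy number would differ by log2 1.5, or 0.58, in BD04 and by log2 4/3, or 0.42, in BT03 and BT05. These are the sizes with which the shifts are compared. Gene dosage in plants is known for a range of outcomes: the RNA of many genes of a trisomic segment scales with the copies, while other genes are buffered and stay near the level of the balanced plant, and genes elsewhere can change in trans. No DNA was measured in these files, and the number of copies in the 3 plants was not tested.

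Members were sorted by their shifts. A gene was said to follow when its shift lay between 0.5 and 1.5 times the expected size in each of the 3 plants, to escape when it was at or below 0 in each of them, and to overshoot when it was over 1.5 times the expected size in each. Promoters of 5 genes at the centre of the account are shown for their sequence context, taken as the 250 bases before the 5′ end of the RefSeq gene model of TAIR10.1 and written 5′ to 3′ along the gene. TFIIIA and RAD52-1 follow, PIN3 and HTH escape, and PR5 overshoots. Capitals mark matches to any of 5 motifs on either strand. The TATA box was searched as TATAAA. For the G-box the letters were CACGTG, and for the telo-box AAACCCTA. The W-box, which WRKY factors bind, was searched as TTGACC and in the variant form that ends in T, TTGACT. The site II element, common before genes of growth and protein synthesis, was searched as TGGGCC and likewise in the form that ends in T, TGGGCT. Matches of different motifs could overlap.
TFIIIA promoter, chr1:27114766-27115015, plus strand: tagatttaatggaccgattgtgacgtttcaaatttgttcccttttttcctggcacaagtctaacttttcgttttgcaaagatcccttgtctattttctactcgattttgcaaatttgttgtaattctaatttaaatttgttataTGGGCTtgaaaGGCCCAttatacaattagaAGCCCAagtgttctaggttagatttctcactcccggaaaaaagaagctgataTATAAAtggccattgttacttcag
RAD52-1 promoter, chr1:26880065-26880314, minus strand: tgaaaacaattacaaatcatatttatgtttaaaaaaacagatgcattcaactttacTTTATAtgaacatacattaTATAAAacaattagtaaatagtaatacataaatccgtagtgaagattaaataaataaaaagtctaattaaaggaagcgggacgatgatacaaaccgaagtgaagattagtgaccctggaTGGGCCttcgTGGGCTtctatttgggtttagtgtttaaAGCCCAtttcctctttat
PIN3 promoter, chr1:26742690-26742939, plus strand: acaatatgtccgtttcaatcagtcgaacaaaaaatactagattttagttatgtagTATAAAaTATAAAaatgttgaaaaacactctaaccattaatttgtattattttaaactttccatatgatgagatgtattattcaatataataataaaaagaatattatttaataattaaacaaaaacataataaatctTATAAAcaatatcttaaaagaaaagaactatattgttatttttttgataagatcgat
HTH promoter, chr1:27452498-27452747, plus strand: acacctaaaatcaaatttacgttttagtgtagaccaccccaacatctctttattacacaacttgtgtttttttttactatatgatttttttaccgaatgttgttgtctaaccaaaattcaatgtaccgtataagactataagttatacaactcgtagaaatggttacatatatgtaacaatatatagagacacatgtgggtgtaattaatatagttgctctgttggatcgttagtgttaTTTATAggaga
PR5 promoter, chr1:28177420-28177669, plus strand: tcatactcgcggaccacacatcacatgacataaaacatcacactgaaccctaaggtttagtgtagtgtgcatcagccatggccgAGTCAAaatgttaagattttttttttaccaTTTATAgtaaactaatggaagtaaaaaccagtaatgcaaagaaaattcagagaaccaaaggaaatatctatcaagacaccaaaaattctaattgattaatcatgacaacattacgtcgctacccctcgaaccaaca
The followers TFIIIA and RAD52-1 have 3 site II matches each, the escapers shown have TATA box matches alone, and the overshooter PR5 has 1 W-box match beside a TATA box match. Other genes of these classes differ. The follower AT1G73020 has 0 site II and 2 W-box matches, and the escaper SMT3 has 2 W-box matches.

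The median shift of the 764 members was 0.55 in BD04, 0.38 in BT03 and 0.31 in BT05, while the medians of the other 12 plants lay between -0.02 and 0.02 (SD 0.0123). As ratios these medians are 1.46, 1.30 and 1.24. The members took 5.87% of the normalized counts of BD04, 5.22% of BT03 and 5.33% of BT05, against 3.69% to 4.11% in the other 12 plants. No other plant came near the 3 in either measure. The share is a sum, in which genes with high counts weigh most. PR5 alone had 93170 counts in BT05 and 17045 in BT03. Median counts per plant were precise here, since the recovered reads of BD04, BT03 and BT05 were 30756482, 27649421 and 20600915 and gave a median counting error of 0.049, 0.059 and 0.062 on the log2 scale for a member.

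**Figure D1:**
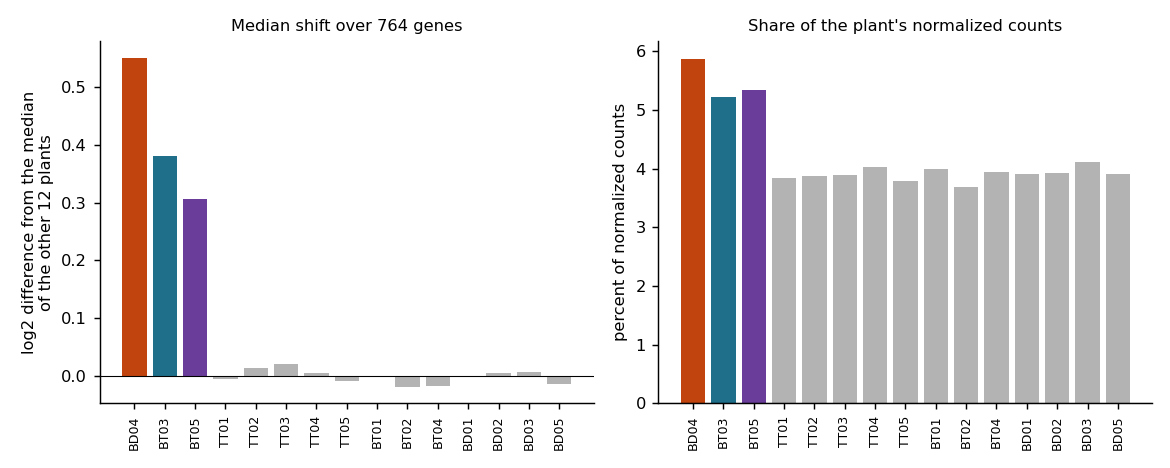
Median over the 764 members of the log2 difference from the median of the other 12 plants (left) and percent of each plant's normalized counts that fell on the members (right), 1 bar per plant, with BD04, BT03 and BT05 in colour. BD04 stands at 0.55 and 5.87%, and none of the other 12 plants exceeds 0.02 or 4.11%.

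The raised plants differed from the rest in more than this region. In BT05 the genes of chromosome 5 had a median shift of 0.32, and those of chromosome 1 before the region, chromosome 2 and chromosome 3 one of -0.11. The shift of the members was therefore also read against those 9172 genes, in 2 ways that gave different values. With the median shift of those genes subtracted, the members stood at 0.57 in BD04, 0.40 in BT03 and 0.42 in BT05. With every plant first centred on its median log2 level over those genes, they stood at 0.50, 0.37 and 0.31. The size of the shift in BT05 thus depends on the choice, while it was above 0 in both. Among the other 12 plants, BT02 had a median of 0.33 on chromosome 4 and none of the others passed 0.03 on any chromosome. RNA of the plastid genome was lower in all 3 raised plants, with median shifts of -0.91, -0.86 and -1.12 over 41 genes in BD04, BT03 and BT05, and the part of this in the results was not tested. The leaf gene RBCS1A had a median of 22607 TPM, while the flower genes stayed at or below 3.35 TPM. The root genes PYK10, PHT1;1 and NRT2:1 had medians of 18.96, 0.05 and 0.63 TPM. Fewer cells of a type and less RNA per cell cannot be told apart in these whole-tissue samples.

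The median shift was larger in BD04, the 1 raised diploid, than in either raised triploid. Gene by gene, the shift in BD04 exceeded that in BT03 by a median of 0.20 (quartiles -0.05 and 0.39), with an expected difference of 0.17. Against BT05 the median difference was 0.26 (quartiles 0.05 and 0.47). The 9172 genes of the unraised parts had median shifts of -0.02, -0.02 and -0.11 in BD04, BT03 and BT05, so BT05 was lower there too. With the median shift of the 9172 genes subtracted these differences were 0.20 and 0.16, and with plants centred on their median level they were 0.17 and 0.21. Between the 2 triploids the median difference, BT03 minus BT05, was 0.04, and -0.05 with the median shift subtracted. The spread between genes was wide in comparison, with an interquartile range of 0.46 in BD04, 0.44 in BT03 and 0.68 in BT05, and genes outside the region had nearly the same, at 0.50, 0.44 and 0.75.

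**Figure D2:**
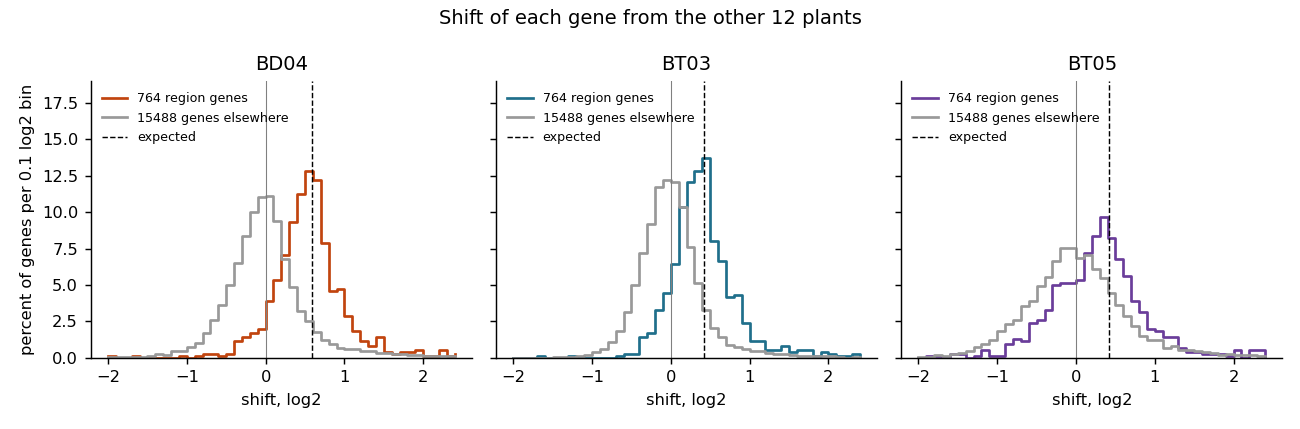
Percent of genes per bin of 0.1 in shift (log2) in BD04, BT03 and BT05, for the 764 members (coloured) and the 15488 genes elsewhere with a mean of at least 50 (grey), drawn between -2 and 2.5, with the expected size dashed. The curve of the members is displaced, with medians of 0.55, 0.38 and 0.31, while its width is like that of the genes elsewhere.

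The share of members with a shift above 0 was 92.3% in BD04, 88.2% in BT03 and 71.5% in BT05. Of the 15444 nuclear genes outside the region it was 47.5%, 47.2% and 48.9%. The shares of the members come from the values that chose the region and plants. The position of the rise along the chromosome was read by fitting a step. The step fitted to the genes of chromosome 1 fell after TPS8 (AT1G70290) in BD04 and after AT1G70180 in BT03, which are 3 genes inside and 4 genes before the first gene of the region. In BT05 it fell after AT1G69400, 53 genes before the first gene of the region. The step is a single best fit in each plant, and the error of its position was not estimated. The rise reached to the end of the region, at an uneven level. In 15 consecutive bins of 51 genes the median shift was between 0.43 and 0.62 in BD04. In BT03 it was between 0.25 and 0.48 and in BT05 between 0.08 and 0.41. In the 5 bins before the region the medians were -0.04 to 0.03 in BD04 and -0.08 to 0.18 in BT03, and those of BT05 were -0.25 to 0.11. In BT03 and BT05 the highest of these was the bin next to the region, at 0.18 and 0.11. The lowest bin of BT05 inside the region, from AT1G74670 to AT1G75330, was at 0.08 and so below that bin.

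**Figure D3:**
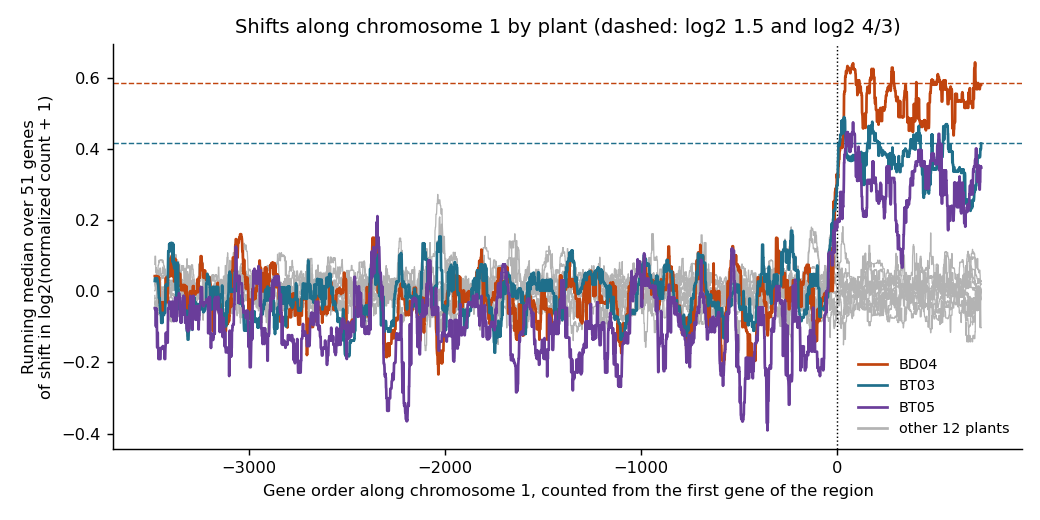
Running median over 51 genes of the shift in log2(normalized count + 1) along chromosome 1, against gene order counted from the first gene of the region (dotted), for BD04, BT03, BT05 and the other 12 plants (grey), with the expected sizes dashed. The lines of BD04 and BT03 leave the other plants near the boundary. The step fitted to BT05 lies 53 genes before the region, and the median shift of this plant on the chromosome before the region is -0.10.

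Single genes at the boundary did not show the step cleanly. TBL27, the last listed gene before the region, had 394, 553 and 172 normalized counts in BD04, BT03 and BT05, against 261 to 531 with a median of 458 in the other 12 plants. The first member, AT1G70250, a receptor kinase gene, had 538, 468 and 508 counts in the raised plants and 168 to 379 with a median of 260.1 in the others. Its neighbour AT1G70280 had 820, 957 and 658, against 779 to 1272 with a median of 984, and overlapped the other plants. The potassium transporter gene KUP6 stood above them again with 253, 201 and 197 counts against 90 to 167.

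Of the 764 members, 130 (17.0%) followed in all 3 plants, 88 (11.5%) overshot and 16 (2.09%) escaped. By the same limits 2.35% of the 15488 genes outside the region followed, 3.88% overshot and 30.0% escaped. Since the rule chose the region and plants on these shifts, the counts describe the choice. In all 3 plants 272 members (35.6%) lay above each of the other 12 plants, against 7.17% of the genes outside. The 272 were 97 followers, 81 overshooters and 94 members of neither kind. Taken 1 plant at a time, 440 members were within the limits of following in BD04, 363 in BT03 and 258 in BT05. These were 57.6%, 47.5% and 33.8% of the members, against 14.7%, 17.6% and 19.8% of the genes outside. Just inside and just outside the lower limit were AT1G80750 at 0.501 and AT1G77940 at 0.493 times the expected size. At the upper limit they were AT1G73940 at 1.49 and AT1G77280 at 1.52 times.

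The limits of following are a fixed window, which genes that vary widely between plants leave more often by construction. When members were split into 3 sets of nearly equal size by their SD over the other 12 plants, 33.3% followed in the lowest set, 13.0% in the middle set and 4.71% in the highest set. Overshooters showed the opposite order, with 3.92%, 9.06% and 21.6%. The median shift of BD04 hardly moved between the sets, at 0.57, 0.53 and 0.54. For mean count the shares of followers were 11.8%, 20.9% and 18.4% in the lowest, middle and highest set.

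The followers named here were those nearest to the expected sizes among members with a mean of at least 200 that stood above the other 12 plants in all 3. TFIIIA, the transcription factor that RNA polymerase III needs for 5S ribosomal RNA genes, had 1638 normalized counts in BD04, 1469 in BT03 and 1436 in BT05. The other 12 plants had 903 to 1307 with a median of 1095, and the shifts were 0.58, 0.42 and 0.39. RAD52-1, a homologue of the recombination protein RAD52, had 595, 554 and 557 counts in the raised plants and 357 to 466, median 400.3, in the others.

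ATWHY2, a single-stranded DNA binding protein of organelles, had 1188, 993 and 1034 counts in BD04, BT03 and BT05, against 650 to 964 with a median of 762. AT1G70570, annotated as an anthranilate phosphoribosyltransferase, had 1646, 1453 and 1393 in the raised plants, against 971 to 1263. In both genes the lowest raised plant stood just above the highest of the others. The other named followers, among them the assembly factor of respiratory complex I AT1G72420, the kinase genes AT1G73450 and AT1G76620, the anoctamin-like AT1G73020, the methyltransferase AT1G77260 and AT1G71240, had ratios of 1.47 to 1.56 in BD04 and of 1.24 to 1.40 in the triploids.

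The escapers had varied annotations. PIN3, an auxin efflux carrier that acts in tropic growth, had 1157 counts in BD04, 1366 in BT03 and 1230 in BT05, against 1202 to 1990 with a median of 1426 in the other 12 plants. LAX3, an auxin influx carrier, had 103, 117 and 71.3 counts against 88.8 to 192 with a median of 129. Both auxin carriers overlapped the other plants in BT03, while PIN3 in BD04 and LAX3 in BT05 lay below all of them.

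HTH (HOTHEAD), an oxidoreductase that prevents fusion of floral organs, had 1775, 2063 and 1635 counts in the raised plants against 1676 to 2498, median 2169. The sterol methyltransferase gene SMT3 had 727, 667 and 503 against 408 to 1272, median 839. SERK1, a receptor kinase of embryogenesis, and ARR15, a cytokinin response regulator, also escaped, with shifts of -0.08, -0.18 and -0.38 for SERK1 and -0.40, -0.09 and -1.44 for ARR15. Among the other escapers were the transporter-like neighbours AT1G72130 and AT1G72140, the RNA-binding AT1G76460 and AT1G78260, AT1G70280, AT1G70430, AT1G77580, AT1G79160, and the wax synthesis regulator WRI4.

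RPS9, emb2184 and emb1473, genes of plastid ribosomal proteins, had shifts of 0.15 to 0.25 in BD04, 0.29 to 0.62 in BT03 and -0.48 to -0.35 in BT05.

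**Figure D4:**
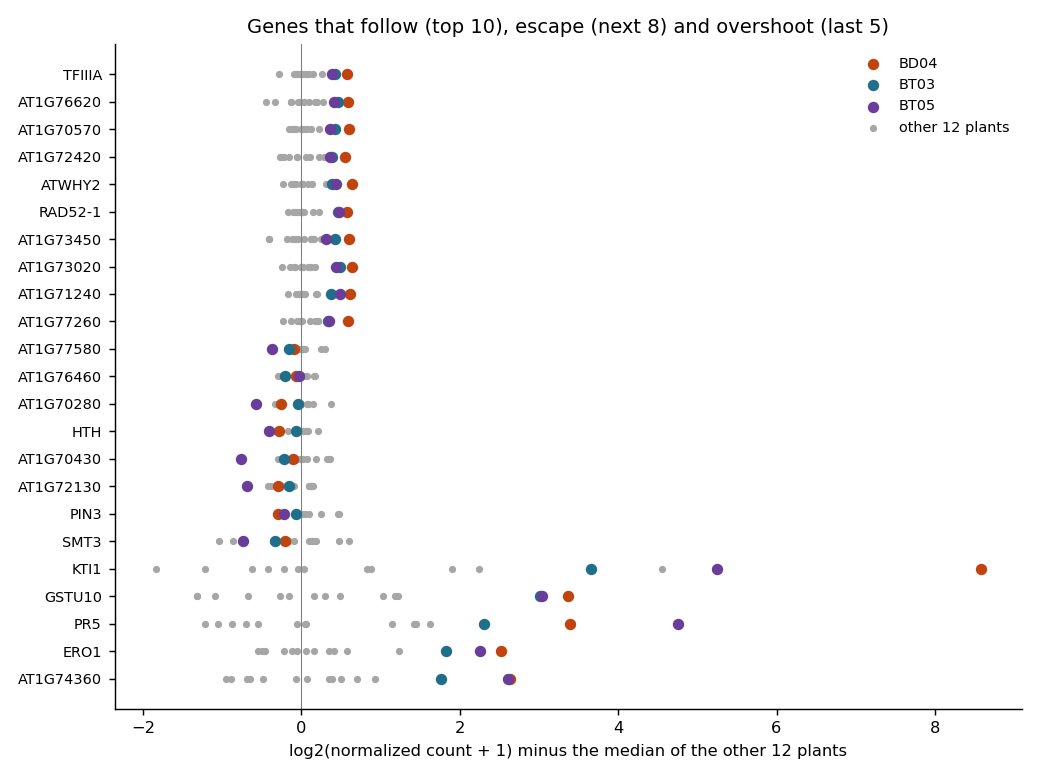
Normalized counts of the 10 named followers, 8 named escapers and 5 named overshooters (top to bottom), as log2(normalized count + 1) minus the median of the other 12 plants, with BD04, BT03 and BT05 in colour and the other 12 in grey, 1 point per plant. Followers stand to the right of all grey points, escapers lie among or left of them, and KTI1 reaches 8.58 in BD04.

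The overshooters named here were the 5 with the highest ratio to the expected size in whichever of the 3 plants it was lowest, among those with a mean of at least 200. PR5, a thaumatin-like protein secreted in the defence response, had 36316 counts in BD04, 17045 in BT03 and 93170 in BT05, against 1486 to 10630 with a median of 3463 in the other 12 plants. KTI1, a Kunitz trypsin inhibitor induced by pathogens, had 9406, 309 and 928 counts, against 5.85 to 572 with a median of 23.5, and BT03 overlapped the other plants. GSTU10, a glutathione S-transferase, had 880, 685 and 700.3 counts against 33.1 to 197 with a median of 84.7.

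ERO1, which forms disulfide bonds in the endoplasmic reticulum, had 740, 459 and 618 counts against 87.8 to 304 with a median of 129. Its partner in that process, the protein disulfide isomerase PDIL1-2, had 10594, 3324 and 12055 counts against 932 to 2564 with a median of 1607. The receptor kinase gene AT1G74360 had 1168, 638 and 1144 counts against 96 to 355. In ERO1, PDIL1-2 and AT1G74360 the raised plants stood apart from all others, at more than 1.5 times the expected size.

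Among 16 gene lists with 111 measured members (of 128 genes, 11 under the mean and 6 not listed), list medians varied. For comparison, 17.0% of all 764 members followed, 11.5% overshot, 2.09% escaped and 35.6% lay above the other 12 plants in all 3. Shifts above 0 were found in 92.3%, 88.2% and 71.5% of all members in BD04, BT03 and BT05. The 7 cytosolic ribosomal protein genes had median shifts of 0.64, 0.47 and 0.21 in BD04, BT03 and BT05, all above 0, and 3 of them followed. AT1G74060, a ribosomal protein of the L6 family, had 5508, 4649 and 4515 counts against 3177 to 4317. Its neighbour of the same family, AT1G74050, had 9133, 9207 and 6922 counts against 5281 to 8162, so that BT05 overlapped. The 2 are near copies, between which reads could be split in counting.

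The 6 subunits of the 26S proteasome and the vacuolar proton pump had median shifts of 0.69, 0.51 and 0.69. All 6 lay above the other 12 plants in all 3, against 35.6% of all members. VAB1, subunit B of that pump, had 6193, 5515 and 5100 counts in BD04, BT03 and BT05, against 3632 to 4242. The proteasome regulatory subunit AT1G75990 had 1006, 691 and 750.0 counts against 429 to 550.1, with a ratio of 2.11 in BD04. Genes of the calcium and stress list were mixed: the kinase CPK30 followed with 323, 258 and 276 counts against 151 to 230.4, while the related kinase CPK29 had 1103, 687 and 1613 against 172 to 339.

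The 10 photosynthesis genes had median shifts of 0.11, 0.44 and -0.54. None of them followed in all 3 plants, where only 17.0% of all members did, so a list of 10 tells little here. TAPX, the thylakoid ascorbate peroxidase, had 3844, 4567 and 1761 counts in BD04, BT03 and BT05, against 2628 to 4728 with a median of 3949. Chlorophyll binding gene AT1G76570, by contrast, had 392, 474 and 455 against 224 to 444. In BT03 all 10 genes had shifts above 0, while in BT05 only 2 of 10 did.

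Salicylic acid and pattern-triggered defence genes had median shifts of 1.60, 1.30 and 1.65. Of these 6, 5 overshot and lay above all other plants, against 11.5% and 35.6% of all members. SARD1, an activator of salicylic acid synthesis, had 3197, 2525 and 5239 counts in the raised plants against 383 to 1064, median 675. EDS16, the isochorismate synthase of this pathway, had 2245, 1869 and 2891 against 463 to 982, median 683. The exception was PEPR1, the receptor of a danger peptide, with 475, 385 and 330 counts, within the range of the other 12 plants, whose median was 398.

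**Figure D5:**
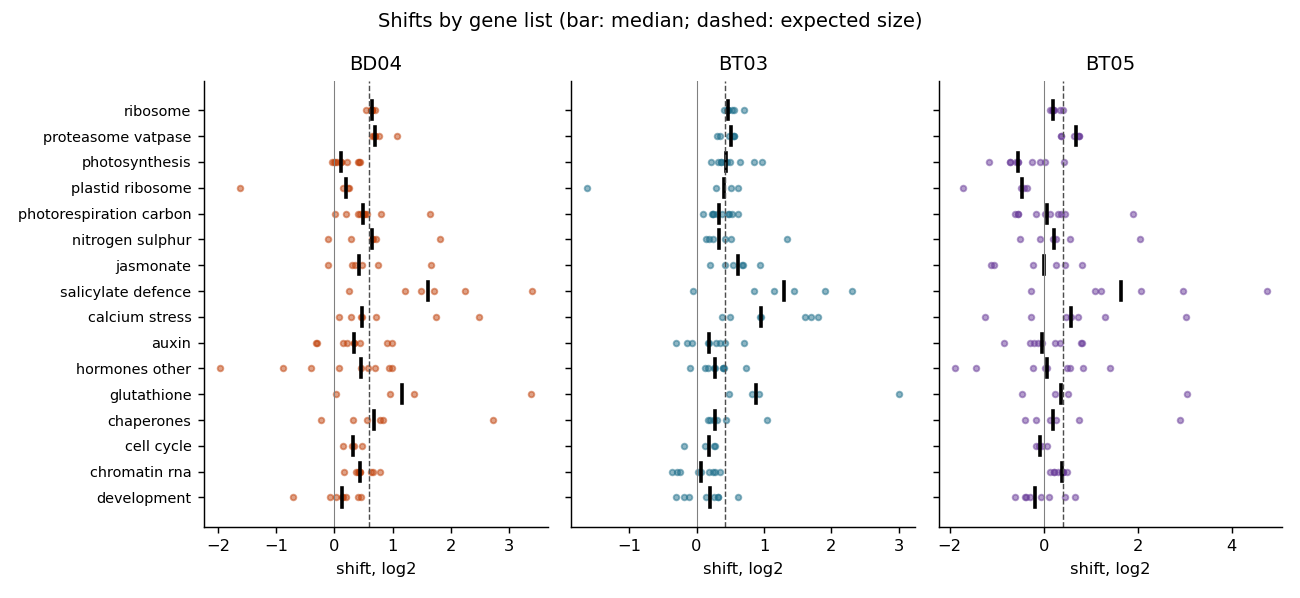
Shift (log2) of each measured gene of 16 lists in BD04, BT03 and BT05, 1 point per gene, with the list median as a bar and the expected size dashed; each panel has its own scale. All ribosome points lie above 0 in each plant, with list medians of 0.64, 0.47 and 0.21, the proteasome list has medians of 0.69, 0.51 and 0.69, and salicylate defence reaches medians of 1.60, 1.30 and 1.65.

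The auxin list had median shifts of 0.34, 0.19 and -0.04 over 9 genes and contained 2 escapers. The 9 chromatin and RNA processing genes had 0.44, 0.06 and 0.39, with PUM23, a factor of ribosomal RNA processing, following at 1235, 1024 and 1134 counts against 641 to 933. NUA, a protein of the nuclear pore, had 2426, 1448 and 2172 counts against 1112 to 2246 and lay lowest in BT03. BZR1, a transcription factor of brassinosteroid signalling, followed with 565, 459 and 495 against 289 to 432, whereas the brassinosteroid-induced BEE3 had 21.5, 116 and 22.7 against 33.7 to 162. MAF1, a repressor of flowering, had 1013, 1125 and 1011 counts against 618 to 893 and followed. The 6 nitrogen and sulphur genes had medians of 0.65, 0.33 and 0.23, with the sulphate transporter gene SULTR1;2 at 642, 464 and 760 counts against 90.8 to 454.

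Whether the members of a family differed from their relatives elsewhere was read on annotated products, with relatives on chromosomes 1 (before the region), 2 and 3. The 12 ribosomal protein genes of the region had medians of 0.58, 0.47 and 0.16, and 185 relatives 0.01, 0.08 and -0.15, so that the members were higher by 0.57, 0.39 and 0.32. Photosystem and light-harvesting genes of the region had medians of 0.31, 0.74 and -0.16 over 4 members, against -0.51, 0.01 and -1.05 over 44 relatives. The difference of 0.81, 0.73 and 0.90 was positive in BT05 too, where both members and relatives were below 0. For 25 protein kinase genes the differences were 0.43, 0.34 and 0.27, and for 15 heat shock, DnaJ and chaperonin genes 0.51, 0.29 and 0.32. The 4 glutathione S-transferase genes differed from 18 relatives by 0.29, 0.28 and -0.09, so that in BT05 they were not the higher ones.

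Defence genes were high outside the region as well. Resistance genes with a TIR domain or of the NBS class had medians of 1.18, 1.16 and 0.98 over 8 members and 0.35, 0.23 and 0.54 over 45 relatives. Of 12 defence genes elsewhere, chosen after the values of the members were seen, 9 overshot and 9 lay above the other 12 plants in all 3, with median shifts of 1.70, 1.35 and 2.78. Over all 15488 genes outside the region, 3.88% overshot and 7.17% lay above the other 12 plants in all 3. PR1, the marker of salicylic acid responses on chromosome 2, had 40179, 18199 and 91717 counts in BD04, BT03 and BT05, against 68.7 to 7602. The part of this response in the shifts of the overshooting members was not tested.

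Motif shares in the promoters were read over all 764 members. The W-box was found before 42.0% of the 88 overshooters, 26.9% of the 130 followers and 18.8% of the 16 escapers, against 27.8% of the 16206 promoters of all genes with a mean of at least 50. Overshooters outside the region had it in 45.4%. The site II element was found in 29.2% of followers, 22.7% of overshooters, 12.5% of escapers and 24.4% of all promoters, and the telo-box in 3.85% of followers, none of the overshooters and 3.63% of all. TATA boxes were near their overall share of 45.3% in each class, at 46.2%, 42.0% and 43.8% in followers, overshooters and escapers, and the G-box was found in 9.23%, 11.4% and 6.25% against 7.45%. A match is a description of the letters in this window and no evidence of binding.

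The raised plants belong to BD and BT, and their effect on the group comparisons was read from a fit of limma to all listed genes in all 15 plants. Limma called no gene at a Benjamini-Yekutieli adjusted p under 0.05 in any of the 3 comparisons, which is 0% of the genes tested and 0 of the 764 members. At an unadjusted p under 0.05 there were 371 genes in BT over BD, 2018 in TT over BT and 514 in TT over BD. Higher and lower genes numbered 166 and 205, 940 and 1078, and 211 and 303 in the same order. Members at this level numbered 1 higher and 4 lower in BT over BD, 7 higher and 32 lower in TT over BT, and 2 higher and 8 lower in TT over BD. On the recovered reads of 14 plants edgeR also called 0 genes after this adjustment, with 423, 2461 and 584 at an unadjusted p under 0.05 in the same 3 comparisons, and DESeq2 called 0 with 367, 2652 and 564. The 2461 genes of edgeR were 860 higher and 1601 lower in TT than in BT, so that lower genes prevailed among all genes too. The members among them were 8 higher and 74 lower. BD04, BT03 and BT05 were selected for high values of the members. The lean of members to lower values in TT, and their median fold changes below 0 in TT, therefore describe this choice. Whether members reached this level more often than other genes was not tested.

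The median log2 fold change of the members was 0.01 in BT over BD, -0.10 in TT over BT and -0.11 in TT over BD, while genes outside the region had medians of 0.00, 0.02 and 0.01. Without BD04, BT03 and BT05 these medians of the members were -0.02, 0.02 and 0.00. Leaving out BD04 alone gave 0.11 in BT over BD, and TT over BD then stood at 0.00. Leaving out BT03 alone gave -0.04 in TT over BT and -0.05 in BT over BD.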

How the data were processed

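Poly(A) RNA of the aerial tissue of 15 plants had been sequenced as 75-base single reads, with 4 technical replicates per plant in 60 samples. Per the labels the authors trimmed reads with Trimmomatic 0.38, aligned them with STAR 2.6.0c and counted with Salmon 0.11.3. Multimapping reads were kept, so that near copies share reads. They deposited 3 tables: gene counts divided by DESeq2 size factors (a normalized signal, used here for all main values), regularized log2 values (rlog) and TPM. Genes with hardly any reads had been removed by the authors.

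Normalized counts were whole multiples of 1 read in 14 plants (100% of values within 0.001), with totals of 19534646 to 30756482 reads, and no reads were recovered for BT01. Counting errors cover sampling only. Shifts used log2(count + 1), on which scale low genes change less than their reads do. Limma 3.58.1 (R 4.3.3, trend) compared groups, 2-sided, with Benjamini-Yekutieli adjustment at 0.05. edgeR 4.0.16, DESeq2 1.42.0, other pseudocounts, minimum means of 10 and 200, TPM, rlog, other references and leaving out plants were alternatives. Methods were checked on simulated data. Coordinates, products and promoters came from RefSeq TAIR10.1. The labels name TAIR10, and all 764 members matched by locus.

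The region, plants, lists and named genes were chosen with earlier results of these data known. Named genes were the 10 nearest followers above all other plants, the 8 steadiest escapers and the 5 overshooters whose lowest ratio of the 3 plants was highest (mean of at least 200 for each), the nearest and farthest member of each list and the 5 genes on each side of the boundary. A few items are not reported here. Whether plants came from separate crosses is not given in the sources used here, so p-values measure the spread between these plants.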

Additional observations from a re-analysis of the deposited data

Results flagged for a closer look

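Within each group of 5 plants, 1 plant stood far from its 4 sisters in 14 of 177 sets of values, at a gap over 0.71 of the range, which chance passes in about 1 of 20 groups. Of the 14, 10 were values of BD04, BT03 or BT05. These 10 describe the choice. The region and many of the named genes were selected for high values in these plants. Escapers, among them AT1G77580, were selected for shifts at or below 0 in them.

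BD04 had a median over the members of 0.55, with the next diploid at 0.01, and a share of 5.87% against 4.11%. BD04 was also the highest diploid in normalized counts of AT1G73020 (511), AT1G71240 (816), KTI1 or AT1G73260 (9406), AT1G75990 (1006), WIN1 or AT1G80600 (5826), CPK30 or AT1G74740 (323) and KUP6 or AT1G70300 (253). BT05 was the lowest BT plant for AT1G77580, at 318 counts with the next at 370.3, and BT02 was the lowest for AT1G72420, at 175 against 246. Among triparental triploids, TT05 was the highest for AT1G77580 (506), TT01 the lowest for AT1G72130 (633) and TT04 the lowest for NUA or AT1G79280 (1370).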

How the results depend on the processing

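Median shifts of the members stayed above 0 in BD04, BT03 and BT05 under every setting tried. On log2(TPM + 0.1) they were 0.65, 0.28 and 0.42, and on the rlog values, which the authors' transformation shrinks, 0.32, 0.22 and 0.17. With each plant centred on its own median level over chromosome 1 before the region, chromosome 2 and chromosome 3, BD04, BT03 and BT05 had 0.50, 0.37 and 0.31. With the unraised plants of the same group as reference BT03 and BT05 had 0.40 and 0.32. Leaving out each of the other 12 plants gave 0.54 to 0.55, 0.38 to 0.38 and 0.29 to 0.31. The difference BD04 minus BT03 was 0.41 on TPM, 0.12 on rlog, 0.18 at a minimum mean of 200, 0.18 with the same-group reference and 0.17 centred, and BD04 minus BT05 was 0.23, 0.15, 0.24 and 0.21 on TPM, rlog, the same-group reference and centred. The cause of these changes was not tested.

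Counts moved with the limits by construction. Followers numbered 213 with the wider bounds and 253 in BD04 and BT03 only, a setting chosen after the data were seen. Escapers numbered 28 at a minimum mean of 10 and 9 at 200, and overshooters 28 on rlog values and 58 at a mean of 200. With plants left out in turn there were 128 to 143 followers, 16 to 21 escapers and 82 to 88 overshooters. Median fold changes of the members without BD04, BT03 and BT05 were -0.0197, 0.0229 and -0.0035 in BT over BD, TT over BT and TT over BD, and TT over BT was -0.0908 on TPM. With each plant left out they were -0.0470 to 0.114 (lowest without BT03, highest without BD04), -0.151 to -0.0396 (highest without BT03) and -0.147 to -0.0035 (highest without BD04). Of 3249 values of 57 named genes under the alternatives, 121 moved by more than the spread between plants and 0 changed direction beyond it.

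Deviations of same-numbered plants had mean correlations of 0.06 between BT and BD, 0.17 between TT and BT and 0.06 between TT and BD. Plants of different number had means of -0.01, -0.04 and -0.02. Single same-numbered pairs ranged from -0.70 to 0.57, -0.15 to 0.44 and -0.42 to 0.43. With the replicate number as a block limma called 0 genes, with 372, 2035 and 629 at an unadjusted p under 0.05. Genes with a shift under about 0.06 are within the counting error of a typical member.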
